A study of Mus musculus with 12 samples.

Results

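The regions described here are stretches of 1 kb of the mouse autosomes that carried more DNA methylation in early-passage embryonic stem cells than in embryos at embryonic day E15.5. A region, called a tile below, was a member if its mean methylation level in the wild-type embryo and in the bimaternal embryo lay at least 20 points below the lower of the levels in early-passage diploid embryonic stem cells (ESCs) and early-passage androgenetic haploid ESCs (ahESCs). A point is 1 percentage point of methylation. A tile was eligible if it held at least 5 cytosines that reached 20% in any library and had a value in those 4 libraries, and 1932 of 53529 eligible tiles (3.61%) were members. A member needs a level of at least 20% in both ESC libraries. Of the 44829 tiles with such a level, which serve below as the comparison set, 4.31% were members. The opposite gap, with both embryos at least 20 points above the higher ESC level, was found in 7995 eligible tiles. Because the ESC and embryo levels chose the members, their gap is a description and has no test.

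The series measured DNA methylation by reduced representation bisulfite sequencing, which reads cytosines near the cut sites of the enzyme MspI, in embryos and mice with only maternal or only paternal genomes and in the cells used to make them. The libraries covered wild-type diploid ESCs, wild-type ahESCs (haploid cells with a sperm-derived genome) and wild-type parthenogenetic haploid ESCs (phESCs, with an oocyte-derived genome), each from an early and a late passage. The embryos were taken whole at E15.5 and were wild type, bimaternal (a phESC injected into a mature oocyte) or bipaternal (an ahESC and a sperm injected into an enucleated oocyte), and brains came from bimaternal animals at E19.5 and as adults and from wild-type adults. All bimaternal and bipaternal samples carried knockouts of differentially methylated regions (DMR-KO), and the labels do not say which regions. Each group was 1 library, so no value below has a replicate error and no difference has a test. The number of embryos or animals behind a library, and of ESC lines or clones, is not given in the sources used here. The bimaternal group also differs from the wild type in its knockout and in its origin from cultured cells, and these cannot be told apart.

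In mammals, cytosines followed by guanine (CpGs) are mostly methylated across the genome, and dense clusters of CpGs at promoters mostly are not. Genes that direct development, such as those for homeodomain transcription factors, often sit in broad stretches of low methylation in embryonic and adult tissues. Enhancers and promoters of tissue genes often lose methylation in the cells that use them, so that a tissue of many cell types shows intermediate levels. In a bulk library such a level can come from a mixture of methylated and unmethylated cells or from partly methylated stretches in every cell, and these cannot be told apart here. The same holds for a difference between a pure ESC culture and a whole embryo with many cell types.

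Sequences of 5 promoters are shown because members overlap them and because they cover the kinds of pattern described below. Each is the 250 bases before the transcription start, 5′ to 3′ on the strand of the gene, from RefSeq (GRCm38.p6), placed on build mm9 by the pattern of its CG and GC dinucleotides. Capitals mark CpGs with at least 1 cytosine used in the tile means. The 5 were chosen after their values were seen, among 34 such stretches that held 6 or more measured cytosines in a member. Cck encodes the gut hormone and neuropeptide cholecystokinin (chr9:121404813-121405062, minus strand). Barhl1 encodes a homeodomain factor of hindbrain neurons and inner ear hair cells (chr2:28772189-28772438, minus strand). Acta1 encodes skeletal muscle alpha-actin (chr8:126418676-126418925, minus strand). Dnah6 encodes a dynein heavy chain of motile cilia (chr6:73171626-73171875, minus strand). Ltb encodes lymphotoxin beta, a lymphocyte cytokine (chr17:35331202-35331451, plus strand).
Cck: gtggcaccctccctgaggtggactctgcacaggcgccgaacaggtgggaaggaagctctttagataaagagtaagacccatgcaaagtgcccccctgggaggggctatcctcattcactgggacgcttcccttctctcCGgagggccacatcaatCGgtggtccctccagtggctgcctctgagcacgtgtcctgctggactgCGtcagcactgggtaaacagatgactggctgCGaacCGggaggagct
Barhl1: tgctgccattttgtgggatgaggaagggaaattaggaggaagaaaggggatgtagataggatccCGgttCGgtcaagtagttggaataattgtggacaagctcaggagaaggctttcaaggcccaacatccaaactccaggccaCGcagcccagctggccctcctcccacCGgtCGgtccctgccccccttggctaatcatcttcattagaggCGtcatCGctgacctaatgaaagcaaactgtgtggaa
Acta1: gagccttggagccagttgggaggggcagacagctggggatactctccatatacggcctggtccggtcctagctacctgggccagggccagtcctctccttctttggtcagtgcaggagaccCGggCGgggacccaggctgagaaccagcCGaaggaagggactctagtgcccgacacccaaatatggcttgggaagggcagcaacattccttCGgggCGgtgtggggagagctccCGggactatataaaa
Dnah6: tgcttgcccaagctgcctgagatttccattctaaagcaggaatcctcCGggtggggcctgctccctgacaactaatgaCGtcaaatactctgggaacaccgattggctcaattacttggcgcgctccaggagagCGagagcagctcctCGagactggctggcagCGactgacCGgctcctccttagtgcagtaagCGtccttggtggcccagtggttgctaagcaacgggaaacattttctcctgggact
Ltb: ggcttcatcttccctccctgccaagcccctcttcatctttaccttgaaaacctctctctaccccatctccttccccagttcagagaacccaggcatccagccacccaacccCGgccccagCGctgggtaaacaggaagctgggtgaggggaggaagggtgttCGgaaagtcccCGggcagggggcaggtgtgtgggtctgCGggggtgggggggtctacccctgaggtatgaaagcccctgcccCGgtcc

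In the Cck promoter every measured cytosine was methylated in the ESCs and nearly free of methylation in the embryos. The mean over its 8 cytosines was 73.4% in diploid ESCs, 62.3% in ahESCs, 2.83% in the wild-type embryo, 4.48% in the bimaternal embryo, 3.46% in the bipaternal embryo, 16.5% in the E19.5 brain, 14.05% in the wild-type adult brain and 14.2% in the bimaternal adult brain. The single cytosines ranged from 64.3 to 81.2% in diploid ESCs and from 0 to 10.4% in the wild-type embryo, so the ranges did not overlap. The printed sequence holds TGCGTCA, a variant of the cyclic AMP response element, at 49 to 43 bases before the start. Its 2 CpG cytosines were at 76.1% and 79.1% in diploid ESCs and at 4.48% and 1.74% in the wild-type embryo. This 7-letter string, read on both strands, occurs in 2.99% of the 11881 promoters placed on mm9, and the match describes letters only.

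The Barhl1 promoter was less evenly methylated. Its 13 cytosines ranged from 5.13 to 78.9% in diploid ESCs and from 0 to 21.6% in the wild-type embryo. The 3 cytosines farthest from the start were the highest in diploid ESCs, at 56.7%, 78.9% and 65.8%, and the wild-type embryo had 7.69%, 10.3% and 21.6% there.

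The Acta1 and Ltb promoters stayed partly methylated in the embryos. The mean at Acta1 was 52.5% in diploid ESCs, 49.9% in ahESCs, 26.6% in the wild-type embryo, 25.01% in the bimaternal embryo, 33.3% in the bipaternal embryo, 51.8% in the E19.5 brain and 62.1% and 62.3% in the wild-type and bimaternal adult brains. The 3 embryos were below the 2 early ESC libraries of the rule, and the 3 brains were close to or above those libraries. The late ESC libraries, at 18.8 to 24.8%, were lower than the embryos. At Ltb the means were 73.2% in diploid ESCs, 71.7% in ahESCs, 44.8% in the wild-type embryo, 44.2% in the bimaternal embryo, 65.7% in the bipaternal embryo and 87.0% in the E19.5 brain.

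The Dnah6 promoter differed among the 3 embryos. Its mean was 61.5% in diploid ESCs, 61.9% in ahESCs, 4.12% in the wild-type embryo, 14.8% in the bimaternal embryo, 33.3% in the bipaternal embryo and 1.25% in the E19.5 brain. The adult brains were at 3.71% (wild type) and 1.55% (bimaternal). The 3 brains were below the 3 embryos, and the bipaternal embryo was the highest of the embryos. The late ESC libraries and early phESCs were low as well, between 1.09 and 7.37%. The sequence holds TGACGTCA, a cyclic AMP response element, at 175 to 168 bases before the start, with CpG cytosines at 41.9% and 39.7% in diploid ESCs and at 4.48% and 0% in the wild-type embryo. This string occurs on either strand in 2.75% of placed promoters.

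**Figure D1:**
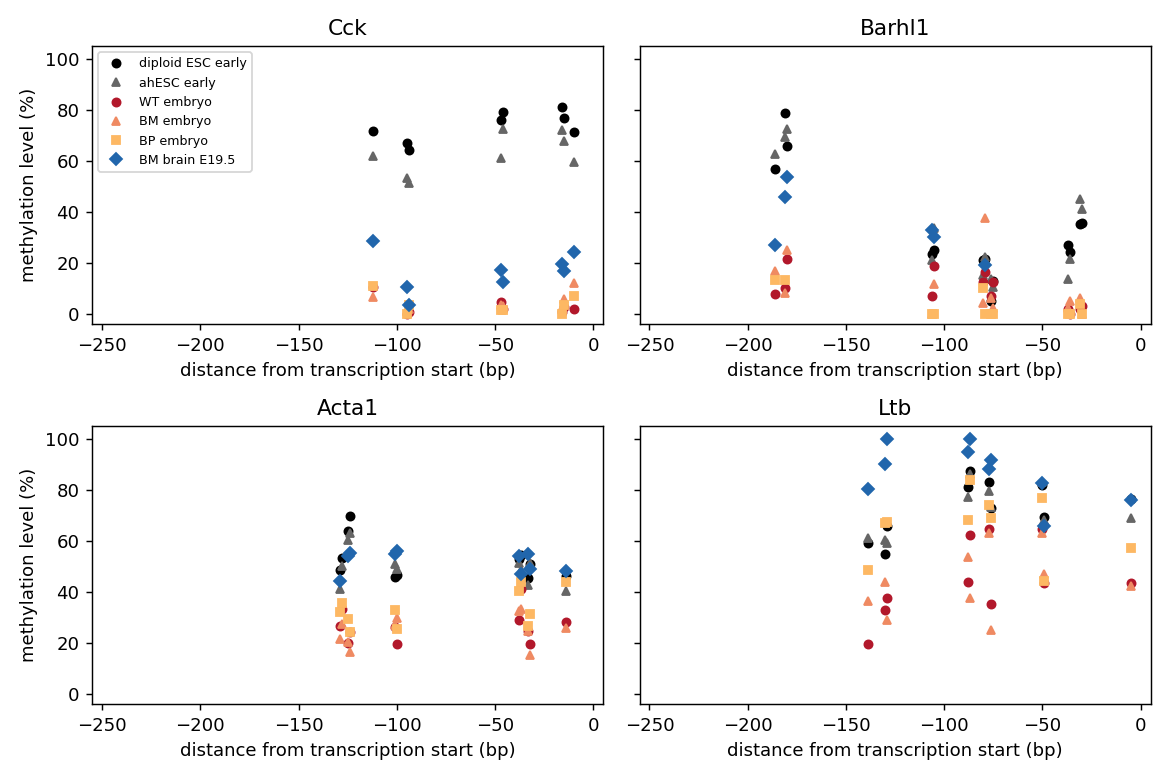
Methylation level (%) of single cytosines against their distance from the transcription start (bp) in the Cck, Barhl1, Acta1 and Ltb promoters, for 6 libraries. At Cck the ESC points sit between 51.3 and 81.2% and the embryo points at or below 12%, while at Acta1 and Ltb the embryo points lie between 15.3 and 83.7%.

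The members' gap was usually moderate. The lower ESC level exceeded the higher embryo level by a median of 28.1 points (quartiles 23.3 and 35.5, highest 68.4), and 811 members had a gap of at least 30 points, 98 of at least 50 and 20 of at least 60. Over the comparison set the median gap was -7.93 points, so the embryos were usually the higher there. The members just inside the threshold had gaps of 20.0038 points (chr5:76158001-76159000) and 20.0158 points (chr4:154515001-154516000), and the tiles just outside had 19.9907 points (chr4:132569001-132570000, at Ahdc1) and 19.9921 points (chr2:19370001-19371000). Members held 5 to 55 measured cytosines each, and the comparison set 5 to 110, both with a median of 8. In 1659 of the 1932 members the wild-type and bimaternal embryos, both required by the rule to be low, lay within 10 points of each other.

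The lower level was spread over the cytosines of a member. Of 17853 cytosines, 12541 (70.2%) were by themselves at least 20 points lower in both embryos than in either ESC library, and in 398 members every cytosine was. The means of these same cytosines in these same libraries chose the members, so a large share follows from the rule. It describes the members alone and has no share over the comparison set beside it. In the wild-type embryo 73.1% of the members' cytosines were from 10 to below 90% and 26.7% were below 10%. No member cytosine was at 80% or more in both ESC libraries and at 5% or less in both embryos. The bases around a cytosine were known for 18.6% of them, of which 99.1% were CpG and 26.6% lay in CCGG, the MspI site, against 98.5% and 25.1% in the comparison set.

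The members lay on all autosomes and formed 1837 separate regions, of which 88 were runs of at least 2 adjacent tiles. Most members had no measured neighbour in the comparison set, and those that did were often beside another member. Counted per side of each member, 436 neighbouring tiles were in the comparison set, and 190 of them (43.6%) were members, against 4.31% of the whole set. The 303 eligible neighbours that were not members had a median gap of 1.76 points, and 29.4% of them had a gap from 10 to 20 points, against 5.39% of the comparison set. The share of the comparison set that were members ran from 3.07% on chromosome 3 to 5.75% on chromosome 8. It was 3.27% among tiles with 1 to 20 listed positions, 5.98% at 61 to 80 and 3.90% above 120. The mean level of the wild-type and bimaternal embryos fell along that order: the members' median of it was 35.5% at 1 to 20 listed positions and 8.72% above 120. Listed positions are CG and GC cytosines covered in any library, so their number rises with the density of those dinucleotides.

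Promoters held more of the members, and exons fewer, than their share of the comparison set. Of 3610 tiles within a promoter (1000 bases before to 500 after a placed transcription start), 273 (7.56%) were members. Of 10049 tiles on another placed exon, 202 (2.01%) were, of 7795 tiles between placed exons of a gene, 443 (5.68%) were, and of 23375 tiles with no placed sequence, 1014 (4.34%) were. The median of promoter members was below that of members elsewhere in every embryo and brain library. Their median level was 49.996% in diploid ESCs, 13.03% in the wild-type embryo, 14.8% in the bipaternal embryo and 22.1% in the E19.5 brain, against 73.7%, 31.8%, 37.98% and 49.2% for members between exons. The 250 bases before the start had a median of 8 CpGs both in 89 promoters in members and in 724 promoters in other tiles of the comparison set, with a median GC content of 56% and 56.6%.

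Embryo and brain libraries whose levels the gap of the rule did not use were also low. They still bore on the choice of the members, because a cytosine was kept if it reached the set level in any library. Their levels are therefore not independent of that choice. The median level of the members was 70.6% in early diploid ESCs and 67.5% in early ahESCs, then 27.5% in the wild-type embryo and 31.9% in the bimaternal embryo, all used by the rule. It was 33.8% in the bipaternal embryo (1702 members with a value), 45.2% in the E19.5 bimaternal brain (1759), 34.9% in the wild-type adult brain (1679) and 31.96% in the bimaternal adult brain (1326). The comparison set had medians of 84.6%, 88.8%, 81.1% and 79.97% in those 4 libraries. Levels below 50% were found in 1270 members (74.6%) in the bipaternal embryo, against 9.57% of the comparison set and 19.1% of all eligible tiles. The same count was 988 members (56.2%) in the E19.5 brain against 7.5% and 16.9%, 1222 (72.8%) in the wild-type adult brain against 12.2% and 22.3%, and 978 (73.8%) in the bimaternal adult brain against 13.9% and 24.6%. The bipaternal embryo and the brains thus stood nearer to the embryos of the rule than to the early ESCs.

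**Figure D2:**
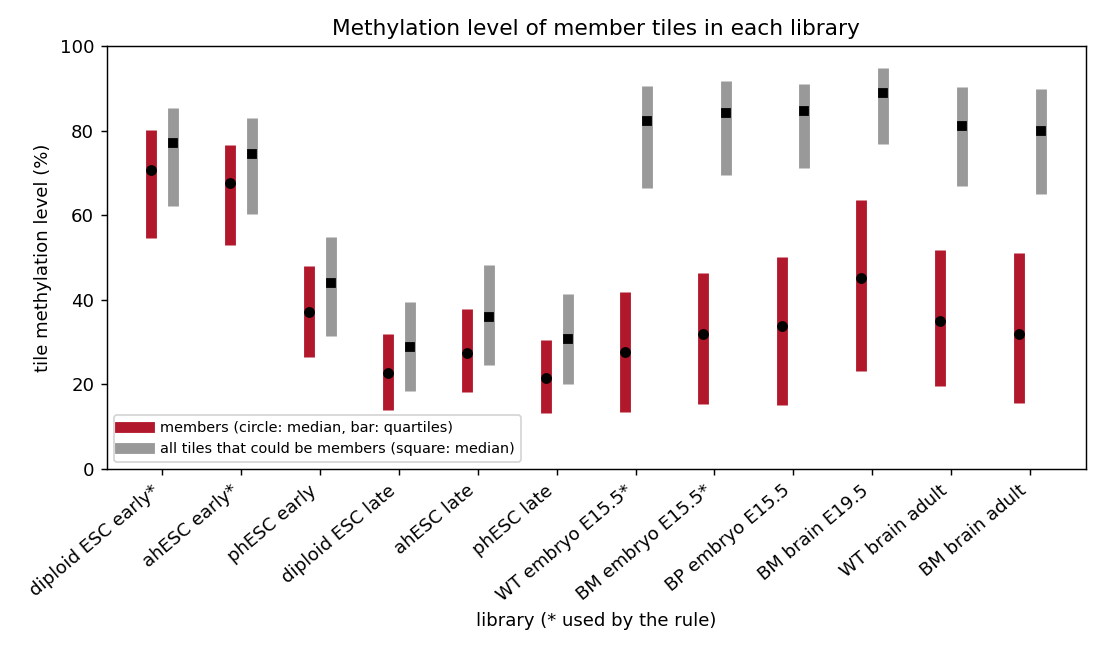
Tile methylation level (%) in each of the 12 libraries for members (red, circle) and for the comparison set (grey, square), as median and quartiles. Asterisks mark the libraries whose levels the gap of the rule used. The members' medians run from 27.5 to 45.2% in embryos and brains, where those of the comparison set lie at 79.97% or above.

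The other ESC libraries were low at members and in the comparison set alike. In early phESCs the median was 37.0% in members and 43.9% in the comparison set. At late passage it was 22.6% in members against 28.8% in diploid ESCs, 27.5% against 36.0% in ahESCs and 21.6% against 30.7% in phESCs. The members were therefore high only in the early diploid ESC and early ahESC libraries among the 6 ESC libraries, and their name as regions methylated in ESCs holds for those libraries alone. Over all autosomal cytosines the mean level was 12.7% and 11.9% in those libraries and 4.17 to 8.54% in the other 4 ESC libraries. These means take in the listed GC cytosines as well as CG, each library over its own positions. They are therefore not CpG levels and cannot be set beside the members' medians.

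The members with the largest gaps were almost free of methylation in the embryos and low in the brains too. Among the 20 regions with the largest gaps and at least 10 cytosines, the gap ran from 55.4 to 68.4 points. Their levels in diploid ESCs ran from 60.6 to 86.7% (median 70.4%), in the wild-type embryo from 2.404 to 19.3% (median 6.55%), in the bipaternal embryo from 0.995 to 36.02% (median 8.35%) and in the E19.5 brain from 1.52 to 39.96% (median 10.2%, 18 regions). In 17 of those 18 regions the E19.5 brain was below 30%.

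First among them was an exonic tile of Lhx9 (chr1:140736001-140737000), a LIM homeodomain factor of the gonads and brain. It was at 86.7% in diploid ESCs, 87.4% in ahESCs, 10.9% in the wild-type embryo, 18.2% in the bimaternal embryo, 3.19% in the bipaternal embryo, 20.1% in the E19.5 brain, 7.58% in the wild-type adult brain and 6.21% in the bimaternal adult brain. Early phESCs were at 23.99%, and the late ESC libraries were between 9.26 and 30.03%. Only the 2 early ESC libraries of the rule were high.

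Of the 20 regions, 10 held placed gene sequence, among them Lhx9, Slc7a14, Kcnk4, Ksr2, Tcf20, Barhl1, Sfta3-ps, Gm12606 and Gm4881. A region whose nearest placed start, 9959 bp from its middle, is that of Nkx3-2, a homeodomain factor of the axial skeleton (chr5:42145001-42146000), was at 71.1% in diploid ESCs, 68.96% in ahESCs, 5.37% in the wild-type embryo, 7.90% in the bimaternal embryo, 5.87% in the bipaternal embryo and 5.88% in the E19.5 brain. A region whose nearest placed start, 7088 bp from its middle, is that of Tlx3, a homeodomain factor of sensory neurons (chr11:33096001-33097000), was at 70.5%, 66.4%, 4.69%, 5.45%, 4.35% and 5.93% in the same libraries. Starts that were not placed may lie nearer to these regions. At both, the 3 embryos and the brain lay within a few points of each other. The promoter of Kcnk4, a potassium channel of neurons (chr19:7001001-7002000), was at 70.4% in diploid ESCs, 69.8% in ahESCs, 10.8% in the wild-type embryo, 8.57% in the bimaternal embryo, 13.5% in the bipaternal embryo and 39.96% in the E19.5 brain. That was the highest E19.5 brain level among the 18 regions with a value there. Between exons of Ksr2, a scaffold of the Ras and MAP kinase cascade (chr5:118115001-118116000), the values were 75.4%, 68.1%, 9.30%, 6.48%, 9.19% and 26.4%. An exonic tile of Slc7a14, a transporter gene (chr3:31108001-31109000), was at 78.2% in diploid ESCs, 9.20% in the wild-type embryo, and 44.96% and 43.04% in the wild-type and bimaternal adult brains. It was thus higher in the adult brains than in the embryos.

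The longest run of members was 4 tiles at Barhl1 (chr2:28770001-28774000), and 1 more member lay just beyond it. All 5 tiles of the comparison set at Barhl1 were members. Their levels ran from 30.3 to 66.4% in diploid ESCs, from 30.5 to 66.7% in ahESCs, from 4.96 to 8.38% in the wild-type embryo, from 4.005 to 8.93% in the bimaternal embryo, from 2.07 to 9.14% in the bipaternal embryo and from 8.87 to 29.5% in the E19.5 brain. In each of these tiles the 3 embryos were below the ESCs, and the brain was above the bipaternal embryo.

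Lists of genes for cell types and gene groups were examined next, each as a share of the tiles of its genes in the comparison set. Over all genes, 918 of 21454 such tiles (4.28%) were members, and 790 of 9176 genes (8.61%) held a member. For Hox cluster genes, which set position along the body axis, 9 of 16 tiles were members (56.25%, 7 of 11 genes). The share was 14 of 120 tiles for neural genes (11.7%, 8 of 19 genes), 8 of 94 for blood and erythroid genes (8.51%), 10 of 119 for mesenchyme, cartilage and bone (8.40%), and 8 of 120 for muscle and heart (6.67%). It was 2 of 47 for hepatocyte genes (4.26%), 1 of 44 for epithelium (2.27%) and 1 of 25 for imprinted genes (4%). No member lay at the genes for endothelium (0 of 47 tiles), pluripotency (0 of 18) or the germline (0 of 35). These lists are small, and the shares are counts without a test.

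At the Hox members the embryos and brains were mostly low, with the highest levels at Hoxa6. The tile at Hoxd4 and within the span of Hoxd3 (chr2:74560001-74561000) was at 76.9% in diploid ESCs, 78.3% in ahESCs, 19.01% in the wild-type embryo, 25.3% in the bimaternal embryo, 10.8% in the bipaternal embryo, 7.60% in the E19.5 brain, 7.11% in the wild-type adult brain and 11.1% in the bimaternal adult brain. The 3 brains and the bipaternal embryo were the lowest of these libraries. At the promoter of Hoxb13, the most posterior gene of its cluster (chr11:96056001-96057000), the levels were 47.2%, 51.5%, 6.99%, 8.63%, 7.43%, 8.33%, 7.84% and 6.63% in the same order of libraries. In the Hoxc10 promoter tile (chr15:102796001-102797000) the ESCs were at 45.98% and 61.3% and the other libraries of that order between 9.91 and 20.8%. For the Hoxa6 promoter (chr6:52159001-52160000) the ESCs were at 66.6% and 69.5%, the wild-type and bimaternal embryos at 44.3% and 41.5%, the bipaternal embryo at 22.01% and the E19.5 brain at 23.5%. Over the 9 Hox tiles the median was 17.4% in the wild-type embryo, 10.8% in the bipaternal embryo and 7.97% in the E19.5 brain.

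The neural members fell into tiles that were low in the brain and tiles that were not. At the promoter of Rbfox3, which encodes the neuronal splicing factor NeuN (chr11:118768001-118769000), the level was 51.7% in diploid ESCs, 47.6% in ahESCs, 7.83% in the wild-type embryo, 5.65% in the bimaternal embryo, 9.23% in the bipaternal embryo, 7.06% in the E19.5 brain, 5.36% in the wild-type adult brain and 4.07% in the bimaternal adult brain. All embryos and brains were below 10% there. Another Rbfox3 member between exons (chr11:118759001-118760000) was at 68.3% in diploid ESCs, 59.8% in ahESCs, 25.9% in the wild-type embryo, 22.2% in the bimaternal embryo and 17.5% in the bipaternal embryo, but at 59.1% in the E19.5 brain and 51.4% and 51.1% in the wild-type and bimaternal adult brains. The promoter tile of Emx2, a homeodomain factor of the cortex (chr19:59531001-59532000), was low in the embryos, which were at 10.7%, 8.89% and 5.62% (wild type, bimaternal, bipaternal) and the E19.5 brain at 34.4%, against 57.3% and 54.3% in the ESCs. In an exonic tile of Pax3, a factor of the dorsal neural tube (chr1:78190001-78191000), the 3 embryos and 3 brains were between 3.67 and 9.55%, while the ESCs were at 36.7% (diploid) and 64.1% (ahESC). Between exons of Camk2b, a kinase subunit of neurons (chr11:5876001-5877000), the embryos were at 32.1% and 40.02% (wild type and bimaternal) and the E19.5 brain at 47.6%, against 74.7% and 73.8% in the ESCs.

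Members at genes of blood, muscle and bone had, in the median, a higher level in the E19.5 brain than in the bipaternal embryo. Over shared cytosines the median difference was 24.98 points for the blood list, 24.2 for muscle and heart and 18.2 for mesenchyme, against 12.9 for the neural list, -1.69 for the Hox list and 10.2 over all members. These medians rest on 5 of 8, 8 of 8, 6 of 10, 12 of 14 and 8 of 9 members. The 2 hepatocyte members had a median of 12.1 points and the epithelium member 27.8. At the promoter of Lyl1, a factor of blood progenitors (chr8:87225001-87226000, 28 cytosines), the level was 41.4% in diploid ESCs, 44.1% in ahESCs, 12.5% in the wild-type embryo, 10.7% in the bimaternal embryo, 7.81% in the bipaternal embryo, 33.8% in the E19.5 brain, and 33.8% and 34.6% in the wild-type and bimaternal adult brains. The 3 embryos were low and the 3 brains were nearer to the ESCs. For the promoter of Epor, the erythropoietin receptor (chr9:21768001-21769000), the ESCs were at 72.9% and 67.1%, the wild-type and bimaternal embryos at 32.3% and 34.9% and the E19.5 brain at 44.9%. In an exonic tile of Gata2, a factor of blood stem cells (chr6:88152001-88153000), the order diploid ESC, ahESC, wild-type, bimaternal and bipaternal embryo and E19.5 brain gave 63.8%, 58.4%, 24.8%, 28.9%, 16.3% and 27.8%. Between exons of Zfpm1, the cofactor of GATA1 (chr8:124846001-124847000), the ESCs were at 84.3% and 83.4%, the wild-type and bimaternal embryos at 50.6% and 54.4% and the E19.5 brain at 71.6%.

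Between exons of Sp7, the osteoblast factor osterix (chr15:102193001-102194000, 19 cytosines), the level was 55.8% in diploid ESCs, 55.9% in ahESCs, 9.83% in the wild-type embryo, 8.81% in the bimaternal embryo, 6.99% in the bipaternal embryo and 38.1% in the E19.5 brain, but 13.5% and 14.5% in the wild-type and bimaternal adult brains. The E19.5 brain was apart from both the embryos and the adult brains. At the promoter of Col9a2, a cartilage collagen (chr4:120725001-120726000), the embryos were at 21.6%, 18.4% and 19.02% and the E19.5 brain at 46.2%, against 51% and 57.7% in the ESCs. In the promoter tile of Col1a2, a collagen of bone and skin (chr6:4454001-4455000), the ESCs were at 61.7% and 62.1% and the embryos at 33.2%, 26.7% and 19.1%. For the promoter tile of Tbx15, a T-box factor of limb and skin mesenchyme (chr3:99056001-99057000), the ESCs were at 77.4% and 64.4%, the wild-type and bimaternal embryos at 25.2% and 28.1% and the E19.5 brain at 20%. Between exons of Pax7, the factor of muscle stem cells (chr4:139356001-139357000), the ESCs were at 74.4% and 74.3%, the embryos at 29.8%, 29.8% and 27.9% and the E19.5 brain at 55.1%. Between exons of Myom1, a protein of the sarcomere (chr17:71452001-71453000), the E19.5 brain was at 28.2%, within the range of the embryos, which were at 18.7%, 36.6% and 28.5%. An exonic tile of Ttn, the giant sarcomere protein (chr2:76776001-76777000), was at 78.9% and 76.2% in the ESCs, 48.8%, 52.4% and 49.96% in the embryos and 56.1% in the E19.5 brain.

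In the promoter tile of F10, coagulation factor X made by the liver (chr8:13037001-13038000), the ESCs were at 70.1% and 65.6%, the embryos at 38.9%, 35.4% and 44.1% and the E19.5 brain at 50.5%. For Hnf4a, a liver and gut factor, the promoter tile (chr2:163375001-163376000) had 77.9% and 75.8% in the ESCs, 42.9%, 52.9% and 46.04% in the embryos and 63.9% in the E19.5 brain. In the promoter tile of Krt18, a keratin of simple epithelia (chr15:101857001-101858000), the ESCs were at 62.02% and 54.5%, the embryos at 21.9%, 27.3% and 12.1% and the E19.5 brain at 50.7%. The E19.5 brain was above all embryos at each of these 3 promoters. At F10 the wild-type and bimaternal adult brains were at 41.6% and 41.7%, below the bipaternal embryo. The Hnf4a and Krt18 tiles had no adult brain value. How far the makeup of each tissue bears on these levels was not tested.

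The member among imprinted genes was an exonic tile of Cdh15, which encodes M-cadherin (chr8:125388001-125389000). It was at 78.9% in diploid ESCs, 76.2% in ahESCs, 13.1% in early phESCs, 21.9% in the wild-type embryo, 53.97% in the bimaternal embryo, 73.5% in the bipaternal embryo, 78.7% in the E19.5 brain and 70.9% in the wild-type adult brain. The 3 embryos differed widely here, and the wild-type embryo was the lowest of them.

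**Figure D3:**
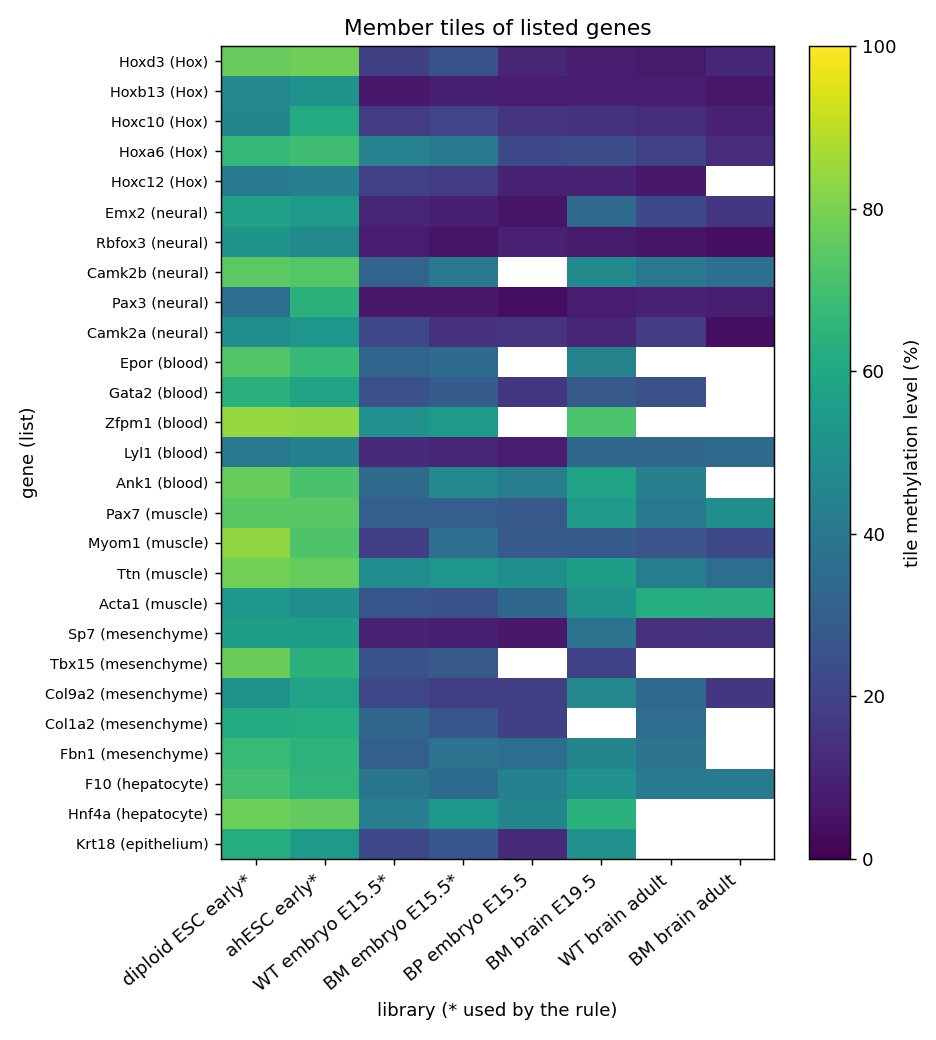
Tile methylation level (%, colour from 0 to 100) of the member with the largest gap for up to 5 genes of each list, in 8 libraries; white cells have fewer than 5 cytosines with a value. The Hox rows other than Hoxa6 are dark in the embryos and brains measured, while rows such as Acta1 and Krt18 are lighter in the E19.5 brain than in the embryos.

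Families of genes that share a symbol were counted after the members had been seen, so their shares are a description alone. Among the families counted as transcription factors, 58 of 278 tiles (20.9%) were members, at 36 of 101 genes. That count left out the zinc finger genes with a Zfp symbol. They had 3 members of 251 tiles (1.20%), at 3 of 111 genes, so the pooled share does not stand for all transcription factor genes. Barhl, Barx and Tlx genes together had 7 members of 10 tiles (70%), Irx genes 4 of 7 (57.1%), Dmrt genes 3 of 7 (42.9%), Pax genes 14 of 43 (32.6%), Tbx genes 5 of 23 (21.7%), and Lhx and Lmx genes 4 of 21 (19.05%). Sox genes had 1 of 19 and Fox genes 3 of 80, and Nkx, and Zic and Gli genes had none of 7 and of 15. Wnt ligand genes had 6 of 46 (13.04%), and collagen genes 8 of 190 (4.21%). No tile of olfactory receptor genes (19), ribosomal protein genes (59), protocadherin genes (48) or Fgf genes (15) was a member.

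Pax and Irx members differed in how often the brain was above the embryos. Over the 14 Pax members the median was 39.3% in diploid ESCs, 43.97% in ahESCs, 10.5% in the wild-type embryo, 12.2% in the bimaternal embryo, 8.19% in the bipaternal embryo, 36.6% in the E19.5 brain and 26.1% in the wild-type adult brain. At 9 of the 14 the E19.5 brain was at least 20 points above the bipaternal embryo. At the other 5, in Pax1, Pax2 and Pax3, it was less than 10 points above, and 4 of these were below 15% in the brain. At Pax6, a factor of eye and forebrain, a promoter tile (chr2:105513001-105514000) was at 39.5% and 33.5% in the ESCs, 12.8%, 12.2% and 2.43% in the embryos and 53.8% in the E19.5 brain. Pax5, a B cell factor, had a member between exons (chr4:44574001-44575000) at 86.4% and 82.9% in the ESCs, 59.1%, 50.6% and 53.1% in the embryos and 93.9% in the E19.5 brain. Over the 4 Irx members the median was 49.2% in diploid ESCs, 10.2% in the wild-type embryo, 8.12% in the bipaternal embryo and 7.06% in the E19.5 brain. At Irx4, a factor of the heart ventricle, 3 tiles had 44.3 to 59.9% in diploid ESCs, 7.52 to 11.3% in the wild-type embryo and 6.86 to 9.81% in the E19.5 brain. At all 4 Irx members the difference between the E19.5 brain and the bipaternal embryo was below 10 points. The brain levels of the families overlap, from 5.03 to 93.9% for Pax and from 5.68 to 9.81% for Irx, and the difference between the families was not tested.

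**Figure D4:**
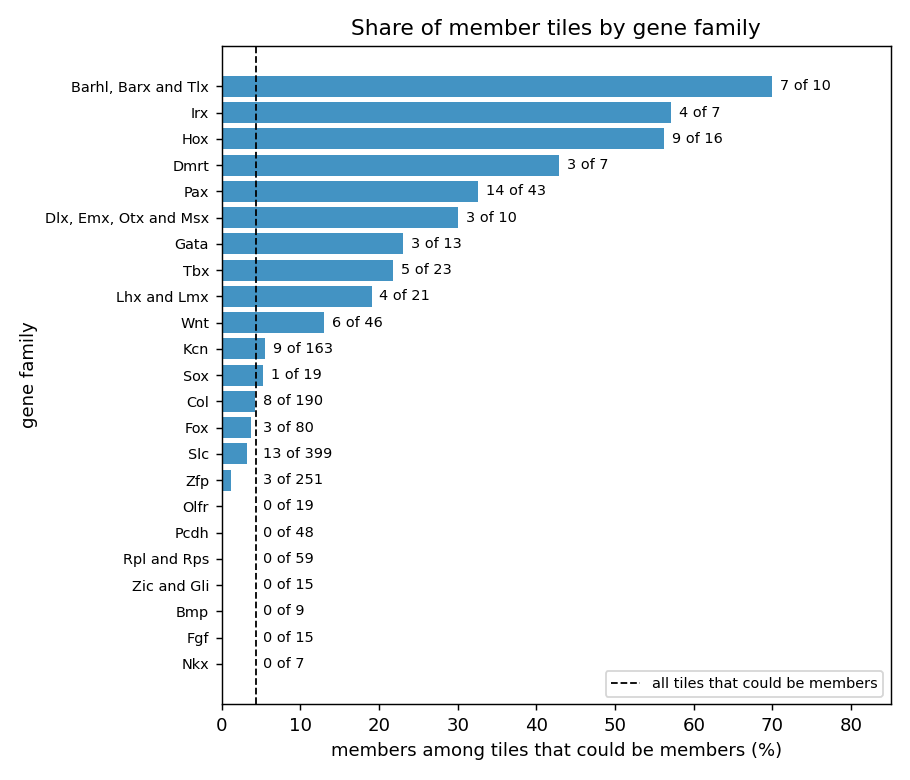
Members as a share (%) of the tiles of each gene family with at least 7 tiles in the comparison set, with the counts beside the bars. The dashed line is the share over the whole comparison set, 4.31%. Homeobox families differ widely. Barhl, Barx and Tlx, Irx and Hox lie above 50%, Dlx, Emx, Otx and Msx at 30%, and Lhx and Lmx at 19.05%. The 7 families at the bottom, Nkx among them, had no member.

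Some genes held many members spread over their length, most of them between exons. These genes were picked for their counts after the values had been seen. Prdm16, a zinc finger factor of brown fat, blood and neural stem cells, held 12 members of 52 tiles. They ran from 61.1 to 86.7% in diploid ESCs (median 73.6%), from 19.2 to 56.5% in the wild-type embryo (median 34.6%), from 8.79 to 56.8% in the bipaternal embryo (median 33.7%) and from 24.4 to 83.7% in the E19.5 brain (median 56.5%). Gse1, a gene for a chromatin-associated protein, held 11 of 70, with medians of 74.04% in diploid ESCs, 34.9% in the wild-type embryo, 31.3% in the bipaternal embryo, 37.7% in the E19.5 brain and 25.4% in the wild-type adult brain. Zmiz1, a transcriptional coactivator, held 7 of 20. Unlike the promoter members, the members of these genes were intermediate in the embryos. Fendrr, a long noncoding RNA needed for the heart and body wall, held 4 of 4, all low. They ran from 42.6 to 68.3% in diploid ESCs, from 8.78 to 9.54% in the wild-type embryo, from 5.88 to 8.76% in the bipaternal embryo and from 11.03 to 21.2% in the E19.5 brain.

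The E19.5 brain and the bipaternal embryo, neither of them used by the gap of the rule, were compared over the cytosines measured in both. At least 5 shared cytosines were present in 1542 members. The brain was higher by a median of 10.2 points in members and of 4.42 points in the comparison set. It was at least 20 points higher in 479 members (31.1%), against 5.68% of the comparison set and 7.55% of all eligible tiles. It was at least 20 points lower in 74 members (4.80%), against 1.67% and 1.59%. Members differed by 20 points more often in both directions, and mostly with the brain higher, but the sets did not start from like levels. Over shared cytosines the bipaternal embryo had a median of 33.5% in members and 84.5% in the comparison set. Most tiles of the comparison set thus had no room for 20 points more. The rule also required the wild-type and bimaternal E15.5 embryos to be low. How far that choice bears on these shares was not tested. The share depends on which cytosines enter: with all cytosines, those below 20% in every library included, 176 tiles were members and the brain was at least 20 points higher in 11 of 143 (7.69%), against 0.211% of the comparison set made in the same way. The share with the brain higher was 21.4% of promoter members, 25.2% of exon members, 31.5% of members between exons and 34.8% of members with no placed sequence. Age, tissue, parental origin and the way the embryos were made all differ between these libraries, and the knocked-out regions may differ too. These cannot be told apart.

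**Figure D5:**
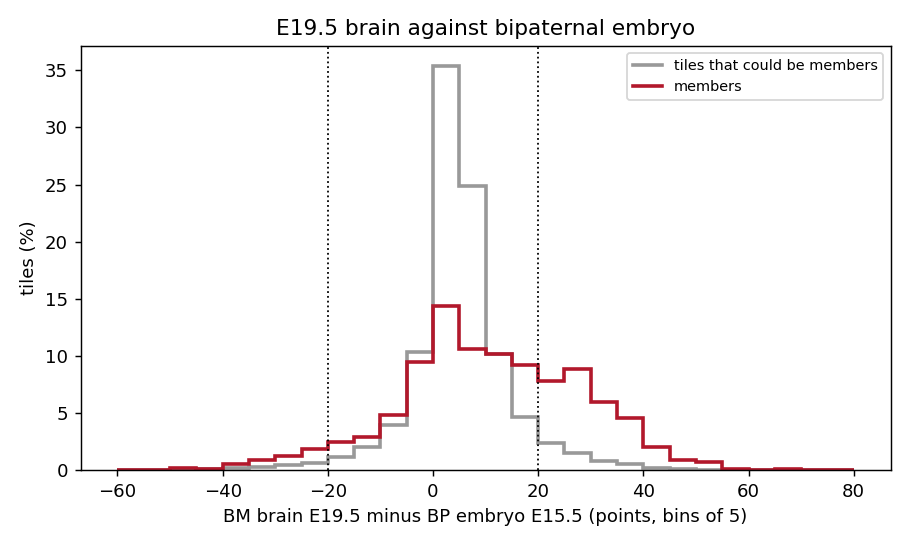
Distribution of the difference in tile methylation (points, in bins of 5) between the E19.5 bimaternal brain and the E15.5 bipaternal embryo, as a percent of the 1542 members (red) and of the comparison set (grey); dotted lines mark 20 points. The members' curve is wider and reaches past 20 points in 31.1% of tiles. The comparison set had a median of 84.5% in the bipaternal embryo, so most of its tiles had no room for 20 points more.

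Named next are the extremes among members with at least 10 cytosines. Some members with fewer cytosines had differences as large, such as a Pax7 tile between exons (chr4:139374001-139375000, 7 cytosines), with an excess of 53.8 points. The largest brain excess was in an exonic tile of Fezf2, a zinc finger factor of cortical projection neurons (chr14:13174001-13175000, 18 cytosines). It was at 51.4% in diploid ESCs, 59.9% in ahESCs, 9.46% in the wild-type embryo, 10.8% in the bimaternal embryo, 5.37% in the bipaternal embryo, 73.5% in the E19.5 brain, 38.04% in the wild-type adult brain and 38.6% in the bimaternal adult brain. The E19.5 brain was above the ESCs, and over shared cytosines it was 68.8 points above the bipaternal embryo. A tile at the promoter of Reln, which encodes the secreted guidance protein reelin (chr5:21851001-21852000), was at 50.2% and 44.7% in the ESCs, 10.7%, 16.4% and 9.53% in the embryos, 57.6% in the E19.5 brain and 35.3% and 21.1% in the wild-type and bimaternal adult brains. Of the 5 such members with the largest excess, the other 3 had no placed gene sequence (chr1:159380001-159381000, chr2:158380001-158381000 and chr4:139271001-139272000), with excesses of 53.9, 52.2 and 51.7 points.

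In the other direction, and again with at least 10 cytosines, some members had the brain far below the bipaternal embryo. The promoter of the noncoding RNA gene Lncppara (chr15:85483001-85484000) was at 11.3%, 19.8% and 42.4% in the embryos and 6.55% in the E19.5 brain, which over shared cytosines differed from the bipaternal embryo by -36.6 points. A tile between exons of Irs2, an adaptor of the insulin receptor (chr8:11003001-11004000), was at 40.9%, 37.2% and 44.5% in the embryos, 21.9% in the E19.5 brain and 15.54% and 12.5% in the wild-type and bimaternal adult brains. At both, the E19.5 brain was below all 3 embryos. Of the 5 such members with the brain lowest against the bipaternal embryo, 2 had no placed gene sequence (chr10:5142001-5143000 and chr5:119617001-119618000), with differences of -36.7 and -35.2 points. A tile of Pitpnm2 between exons, with 6 cytosines (chr5:124671001-124672000), had a larger difference, -45.3 points. This tile and the Pax7 tile were chosen after their values were seen.

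Grouped by their level in the E19.5 brain, the members spread from low to high. Of 1759 members with a value, 571 were below 30% (32.5%), 673 from 30 to below 60% (38.3%) and 515 at 60% or more (29.3%). The shares of the comparison set were 3.48%, 7.87% and 88.7%. Promoters made up 28.5% of the members in the first group and 4.66% in the last, and the comparison set had the same trend, with 35.4% and 6.52%. The members' median in the bipaternal embryo was 10.8% in the first group, 33.8% in the second and 50.9% in the last. In the wild-type adult brain it was 13.5%, 36.8% and 60.1%.

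The adult bimaternal and wild-type brains were close to each other at the members. Over 1325 members with at least 5 shared cytosines the median difference, bimaternal minus wild type, was -1.74 points. The bimaternal brain was at least 20 points higher in 3 members (0.226%), against 0.041% of the comparison set and 0.0949% of all eligible tiles. It was at least 20 points lower in 2 members (0.151%), against 0.181% of both. With 1 library each and unknown depth, differences of any size could not be told from measurement error.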

How the data were processed

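Per the submitters' processing notes, reads were trimmed with Trim Galore and aligned with Bismark 0.13.1 to build mm9. The deposited table gives a methylation percent, scaled from 0 to 100, for 8119606 CG and GC cytosines in 12 libraries. The authors' table holds no read counts, so depth is unknown and no interval is given. Libraries had values at 3773871 to 5903648 cytosines.

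Tiles of 1 kb on chromosomes 1 to 19 took the plain mean over cytosines, and a level needed at least 5. Pairs of libraries were compared over cytosines with values in both. Gene names come from exons of GENCODE M21 and promoters of RefSeq GRCm38.p6, placed on mm9 where their own pattern of CG and GC matched at least 8 listed positions without a miss. This placed 76581 of 421249 exons (18.2%) and 11881 of 31363 promoters (37.9%), so a tile with no placed sequence may still lie in a gene. At a false shift of 1013 bp, 0 exons and 2 promoters were placed. Exons whose shift left that of their neighbours by over 20 kb were dropped, a step chosen after seeing the data.

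Members and lists were chosen with earlier results of these data known. Named are the 20 largest gaps with at least 10 cytosines, up to 4 genes of each list, the tiles beside the threshold, the 5 largest differences each way between the E19.5 brain and the bipaternal embryo at that minimum, and the longest run. Some items that this rule names are not reported here. Scripts in Python 3.11.15, NumPy 2.4.6 and pandas 2.3.3 were tested on simulated data.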

Additional observations from a re-analysis of the deposited data

How the results depend on the processing

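Of 106 values recomputed under 10 planned and 6 later alternatives, 74 stayed and 32 moved. With no replicates or depth, a median counted as moved beyond 5 points, a number beyond 1.5 times, and a share outside its 95% Wilson interval over tiles. The members numbered 2972, 1259 and 811 with gaps of 15, 25 and 30 points, 629 with at least 10 cytosines per tile, 1212 with neighbouring cytosines averaged, and 3056 with the wild-type embryo alone. Using all cytosines gave 176 members, 128 of them the same. That setting adds positions below 20% in every library, from a table that lists GC as well as CG cytosines. The medians in the bipaternal embryo, E19.5 brain, wild-type adult brain and bimaternal adult brain then were 9.09%, 15.8%, 12.9% and 10.6%, those in early phESCs and late diploid ESCs 19.4% and 11.0%, and the shares with the E19.5 brain higher or lower than the bipaternal embryo 7.69% and 1.40%, with 0% differing between adult brains. With a gap of 30 points those 4 medians were 25.9%, 37.4%, 28.3% and 25.2%. With cytosines that reached 50% they were 40.6%, 52.5%, 41.05% and 37.3%. With at least 10 cytosines the first 2 were 27.5% and 38.5%. The share with the brain higher was 28.6% with a gap of 15 points and with 10 cytosines, 34.0% with cytosines that reached 50%, 27.8% with neighbours averaged and 34.4% with tile medians. Tile medians put 1.85% of members at a difference between adult brains. No paired analysis was possible because each group has 1 library. Depth is unknown, so levels from few reads cannot be told from others.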
